A study of Mus musculus with 2 samples.

Results

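Chemokine transcripts of cultured mouse urothelial cells were followed in 9 genes: the secreted ligands Cxcl1, Cxcl2, Cxcl5, Ppbp, Cxcl12 and Ccl20, the membrane-anchored ligands Cxcl16 and Cx3cl1, and the receptor gene Ccr2. The genes were taken by symbol, and all 9 were found among the 31053 genes of the count matrices. Their transcripts were counted in single cells of normal mouse urothelium organoids, which are bladder-lining cells grown in Matrigel. Both cultures came from wild-type C57BL/6 mice 8-10 weeks old. The proliferative culture (P) grew in complete medium with EGF, Noggin, WNT3A, RSPO1 and LY2157299, which blocks the TGF-β receptor. The differentiated culture (D) had 7 days of complete medium followed by 7 days of medium without any of these components. Their separate effects cannot be told apart. The time in culture and the passage of P at capture are not given, so that a difference in these cannot be told apart from the medium. The methods describe organoids from unsorted digests of urothelial scrapings.

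Each condition is 1 droplet library, so differences between them have no replicate check, and no p-value was computed. Intervals are exact at 95% and cover counting error only. Cells with more than 800 detected genes and at most 12% mitochondrial counts were kept, which left 6818 of 8194 barcodes in P and 4896 of 6975 in D. The kept cells held 26681469 unique molecular identifiers (UMIs, 1 for each captured transcript molecule) in P and 20305621 in D, and the median cell held 3406 and 3228. The libraries shared 10 barcodes, 6 of them among kept cells. Keratin 5, the basal keratin of the urothelium, was found in at least 96.3% of the carrier cells of Ppbp, Cxcl12 and Ccr2 and in 98.0% to 99.0% of other cells, so that it marks nearly all cells of both libraries. The pan-leukocyte gene Ptprc had 1 UMI in P and 2 in D. The leukocyte genes Tyrobp, Coro1a, Adgre1 and Cd3e had 0 in both libraries, as had the endothelial genes Cdh5, Kdr, Emcn and Tek. Other leukocyte genes were detected, with 7 UMIs of Laptm5 in P and 400 in D, and 16 and 8 of Lyz2. The whole leukocyte list of 14 genes held 43 UMIs in P and 422 in D. The endothelial genes Pecam1 and Egfl7 were detected, with 60 and 78 UMIs in P against 50 and 17 in D. Without thinning, 2.06% of Ppbp carriers of P held Pecam1, against 0.799% of other cells. The shares for D were 2.66% and 0.907%. For Egfl7 they were 0.917% and 1.14% in P, then 0.380% and 0.345% in D. The cause of these differences was not tested.

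Chemokines are small proteins that guide migrating cells along a gradient by binding receptors with a bundle of membrane-crossing helices. Epithelia that line a lumen, including that of the bladder, are known to secrete them during infection and injury, when they draw neutrophils and other leukocytes across the epithelial wall. Families are named for the spacing of the first cysteines of the mature protein: CXC chemokines have a single residue between them, CC chemokines none and the CX3C chemokine a longer spacer. A glutamate-leucine-arginine (ELR) motif just before the first cysteine marks the CXC chemokines that bind CXCR2 and attract neutrophils.

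The stretch of coding sequence that carries these hallmarks is shown for the 8 ligands, since it sets the groups in which the results are given. Each is a window of 30 bases in exon 2 of its transcript, read 5′ to 3′ along the coding strand of GRCm38. Capitals mark the codons of the ELR motif, where there is one, and of the first pair of cysteines of the mature protein.
Cxcl1 chr5:90891484-90891513 (+ strand): aatGAGCTGCGCTGTcagTGCctgcagacc
Cxcl2 chr5:90904130-90904159 (+ strand): agtGAACTGCGCTGTcaaTGCctgaagacc
Cxcl5 chr5:90759715-90759744 (+ strand): acgGAGCTGCGTTGTgttTGCttaaccgta
Ppbp chr5:90769073-90769102 (+ strand): atcGAACTGCGCTGCagaTGTacgaatacc
Cxcl12 chr6:117171496-117171525 (+ strand): ctgagctaccgaTGCcccTGCcggttcttc
Cxcl16 chr11:70459118-70459147 (− strand): gtcgctggaagtTGTtctTGTgatcgtacc
Ccl20 chr1:83117801-83117830 (+ strand): agcaactacgacTGTTGCctctcgtacata
Cx3cl1 chr8:94778039-94778068 (+ strand): ggcatgacgaaaTGCgaaatcatgTGCgac
The ELR codons were present in 4 ligands, Cxcl1, Cxcl2, Cxcl5 and Ppbp, and absent from the windows of Cxcl12 and Cxcl16. A single codon separated the cysteine codons in all 6 CXC genes. The codons were adjacent in Ccl20, and 3 codons lay between them in Cx3cl1.

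The 4 ELR genes lie on the same strand of chromosome 5 within 146.6 kb, in the order Cxcl5, Ppbp, Cxcl1 and Cxcl2. Cxcl5 (ENSMUSG00000029371, chr5:90759360-90761624) is 6.9 kb from Ppbp (ENSMUSG00000029372, chr5:90768518-90770063). Cxcl1 (ENSMUSG00000029380, chr5:90891241-90893115) and Cxcl2 (ENSMUSG00000058427, chr5:90903871-90905938) are 10.8 kb apart. The other members are spread over the genome: Cxcl12 (ENSMUSG00000061353, chr6:117168535-117181367), Cxcl16 (ENSMUSG00000018920, chr11:70453983-70459984), Ccl20 (ENSMUSG00000026166, chr1:83116766-83119167), Cx3cl1 (ENSMUSG00000031778, chr8:94772009-94782427) and Ccr2 (ENSMUSG00000049103, chr9:124101950-124113557). All positions are in GRCm38.

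Transcripts of related genes can share reads. Cxcl2 and Cxcl3, a gene of the same chromosome 5 group, share a run of 110 identical bases. In the last 500 bases of their transcripts, near the end that this 3′ assay reads, the longest shared run was 16 bases. Between Cxcl1 and Cxcl2 the longest run was 23 bases over the whole transcripts and 14 in the last 500.

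Together the members held 6688 UMIs in P and 5883 in D, or 250.7 and 289.7 counts per 1000000 UMIs (CPM). Because the assay counts 1 tag per molecule, CPM values of different genes can be set side by side without a length correction. Cxcl5 was the most abundant member in both libraries, with 71.5 CPM in P (95% interval 68.3 to 74.8) and 90.3 in D (86.2 to 94.5). Ppbp (54.6 CPM, 51.8 to 57.5) and Cxcl16 (52.0, 49.3 to 54.8) came next in P, and their intervals overlapped. These 3 ligands made up 28.5%, 21.8% and 20.7% of the members' UMIs in P and 31.2%, 22.0% and 22.7% in D. Below them the order in P was Ccr2, Cxcl2, Cx3cl1, Ccl20 and Cxcl1, with no overlap of intervals between neighbours, and Cxcl12 was last. In D the intervals of Cxcl12 and Cx3cl1 overlapped, as did those of Ccr2, Cxcl1 and Ccl20 at the bottom of the order.

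Between the culture conditions, Cxcl12 and Ccr2 were the members that differed by 2-fold or more. Cxcl12 was 239-fold higher in D and Ccr2 was 7.33-fold higher in P. Thus 1 of 9 members was at least 2-fold higher in D, where 13.5% of the 10719 genes with at least 100 UMIs were, and 1 of 9 was at least 2-fold higher in P, against 4.73% of those genes. The median log2 ratio of D to P was 0.42 over 8939 genes that reached 100 UMIs in both cultures, a shift that lies across the whole library.

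Cxcl2, Cxcl5, Cxcl16, Ppbp and Cx3cl1 had log2 ratios of 0.22 to 0.34 on the CPM scale, all smaller than that shift. Relative to the shift they were slightly lower in D, at −0.08 (Cxcl5), −0.09 (Cxcl16), −0.13 (Cxcl2), −0.15 (Cx3cl1) and −0.20 (Ppbp), so that the direction of these differences depended on the scaling. Cxcl1 had a log2 ratio of 0.20, with an interval of −0.25 to 0.64 that spans 0. Ccl20 was lower in D on both scales, at −0.70 (−1.12 to −0.29) on the CPM scale and −1.12 relative to the shift.

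**Figure D1:**
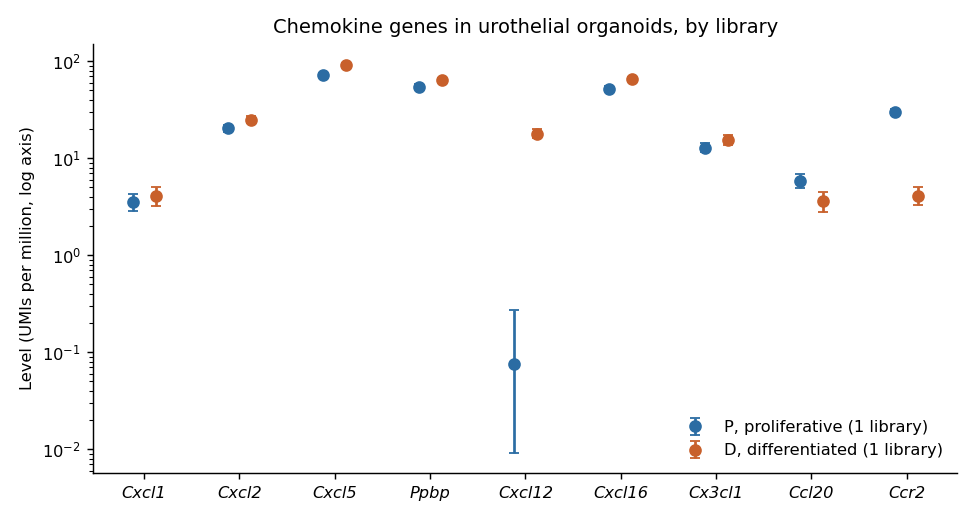
Level of each member in P and D as CPM of summed UMIs on a log axis, with bars for exact 95% intervals of counting error. Cxcl12 stands at 0.0750 CPM in P and 17.9 in D, Ccr2 at 29.95 and 4.09, and the other pairs of points lie close together.

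To place the members within each culture, the cells of each library were grouped by their transcriptome with the chemokine and receptor genes kept out of the grouping. P gave 4 clusters and D gave 3. In P, cluster 0 (2576 cells) was led by Sprr3, Cnfn and Sprr2f, genes of the cornified envelope of squamous cells, and cluster 1 (2555 cells) by Ctla2a, Nbl1 and Ptprz1. Cluster 2 (1334 cells) was led by Fmo2, Mmp7 and Slc7a11, and cluster 3 (353 cells) by Ccna2 and Hmmr, genes of cycling cells. In D, cluster 0 (2849 cells) was led by Reg1 and Krt1, cluster 1 (1312 cells) by Cav1, Acta2 and Ms4a10, and cluster 2 (735 cells) by Ifit1bl1 and Ankrd1, with Upk3a, a uroplakin of the umbrella cell surface, and Ppbp among its 10 leading genes. The basal list (Krt5, Krt14, Krt15, Trp63, Itga6, Itgb4 and Cd44) was 0.53 log2 units above the rest of the library in P cluster 1 and 0.52 in D cluster 1. The intermediate list, which holds Krt8, Krt18, Krt19 and Psca, was 2.12 above the rest in P cluster 0 and 1.17 in D cluster 2. The luminal list, of uroplakins and Krt20, was 3.02 above the rest in P cluster 0 and 2.68 in D cluster 2. The squamous list, which holds Krt13, Flg and Crnn, was 3.22 and 0.85 above it in these clusters.

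Members at least 2-fold over the rest of their library were found in 4 of these 7 clusters. In P, 7 members had enough UMIs to be read this way. Among them 4 were 2-fold higher in cluster 0, against 5.89% of all genes read there, 1 in cluster 1 (5.3%), 0 in cluster 2 (0.242%) and 0 in cluster 3 (7.65%). In D, with 6 members read, the count was 0 in cluster 0 (1.57%), 1 in cluster 1 (6.03%) and 4 in cluster 2 (2.94%). These counts describe the clusters and are not a test. With finer clusters (resolution 0.4) the log2 ratio of P cluster 0 to the rest of P was 0.97 for Cxcl2, beside 1.30, so that Cxcl2 was no longer 2-fold higher there, 1.12 for Cxcl5, beside 2.49, and 2.57 for Ppbp, beside 4.01.

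**Figure D2:**
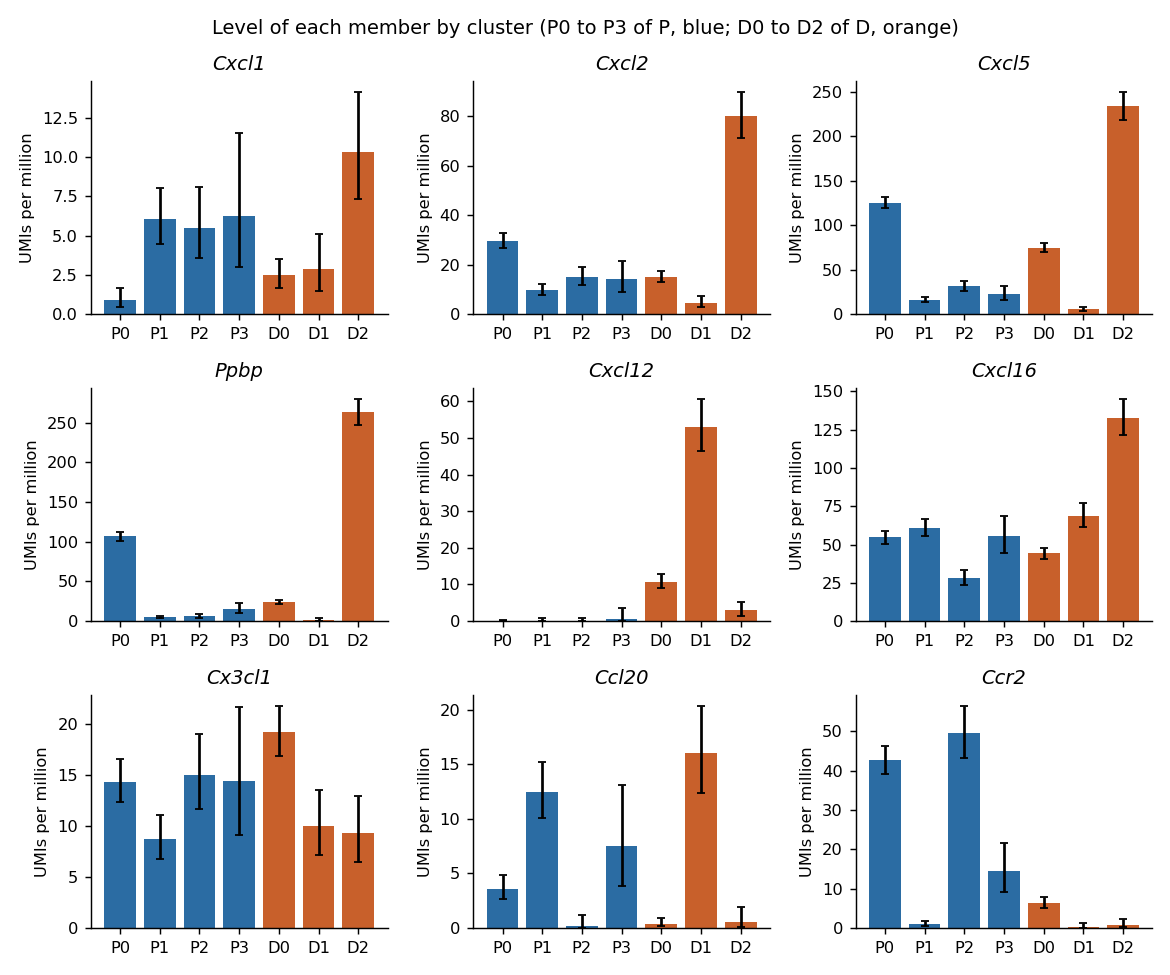
Level of each member in the clusters of P and D, as bars of CPM with exact 95% intervals on a linear axis. Cxcl5, Ppbp and Cxcl2 peak in P cluster 0 and D cluster 2, Cxcl12 and Ccl20 peak in D cluster 1, and Ccr2 is high in P clusters 0 and 2.

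The ELR chemokines Cxcl2, Cxcl5 and Ppbp were concentrated in P cluster 0 and D cluster 2, the clusters with the highest intermediate, luminal and squamous lists. The product of Ppbp (pro-platelet basic protein) is known from platelet granules, from which proteases release a neutrophil attractant. Ppbp stood at 106.8 CPM (101.2 to 112.7) in P cluster 0 and at 5.02, 6.17 and 15.7 CPM in clusters 1, 2 and 3. In D it stood at 263 CPM (247 to 280) in cluster 2, 23.7 in cluster 0 and 1.70 in cluster 1. Cluster 0 of P thus held 93.7% of the Ppbp UMIs of P, and cluster 2 of D, with 15.0% of the cells, held 76.7% of those of D. After thinning to 2100 UMIs per cell, Ppbp was found in 9.54% of the cells of P cluster 0 and 0.617% of those of cluster 1, whose median depths before thinning were 4234 and 2840 UMIs. The corresponding shares in D were 15.2% in cluster 2 and 0.483% in cluster 1 (median depths 4235 and 2676). The shares of 0.617% and 0.483% were the lowest of their libraries, and whether they reflect low expression or background was not tested.

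Cxcl5, a CXCR2 ligand typical of epithelial cells, had a wider distribution than Ppbp. Its level was 125.2 CPM in P cluster 0, 31.7 in cluster 2, 23.2 in cluster 3 and 16.5 in cluster 1. In D it was 233.5 CPM in cluster 2, 74.8 in cluster 0 and 5.82 in cluster 1. Cxcl2, which encodes an inducible neutrophil attractant, followed the same order of extremes at lower levels, with 29.6 CPM in P cluster 0 and 9.77 in P cluster 1, and 80.1 in D cluster 2 and 4.61 in D cluster 1. Thus the 3 genes were lowest in D cluster 1. In P their lowest values were in cluster 1, but its intervals overlapped those of cluster 2 for Ppbp and Cxcl2 and of cluster 3 for Cxcl5 and Cxcl2.

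Cxcl1, the fourth ELR ligand and, like Cxcl2, a neutrophil attractant, was distributed differently in P. It stood at 0.940 CPM (0.486 to 1.64) in P cluster 0 and at 6.04, 5.51 and 6.26 CPM in clusters 1, 2 and 3. In D it was highest in cluster 2 (10.3 CPM, 7.35 to 14.1), as the other ELR genes were, with 2.498 in cluster 0 and 2.91 in cluster 1. The intervals of the thinned shares overlapped, at 1.11% (0.482 to 2.18) in cluster 2, 0.338% (0.155 to 0.641) in cluster 0 and 0.483% (0.157 to 1.12) in cluster 1. A single cell of D held 12 UMIs, and 10 of the 20 richest cells of D lay in cluster 0. With 94 UMIs in P and 82 in D, Cxcl1 was a scarce transcript throughout.

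Few cells accounted for much of the ELR signal. The richest Ppbp cell held 81 UMIs in P and 45 in D, and 26 cells of P and 41 of D held 10 or more. The 20 richest cells of each library carried 36.4% of the Ppbp UMIs in P and 40.4% in D. Cells with a single Ppbp UMI contributed 15.0% and 9.20%. The corresponding share of the 20 richest cells was 18.7% and 16.2% for Cxcl5, whose richest cell held 35 UMIs in each library, and 23.3% and 32.2% for Cxcl2, with at most 9 and 22 UMIs in a cell. Of the 20 cells richest in Ppbp, 19 lay in cluster 0 in P and 17 in cluster 2 in D, and none was among the doublet candidates.

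In cells thinned to equal depth, the share of cells with a Cxcl5 UMI was 7.86% (7.23 to 8.54) in P and 10.1% (9.22 to 11.0) in D, against 12.5% and 15.6% of unthinned cells. The shares for Cxcl2 were 2.92% and 3.12% (4.71% and 4.98% unthinned). For Ppbp they were 4.19% and 3.92% (6.39% and 5.37% unthinned). For Cxcl1 they were 0.844% and 0.498% (1.23% and 1.12% unthinned). Since the last 2 genes had the higher CPM in D and the higher share of cells in P, no order between the libraries was read from these shares.

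**Figure D3:**
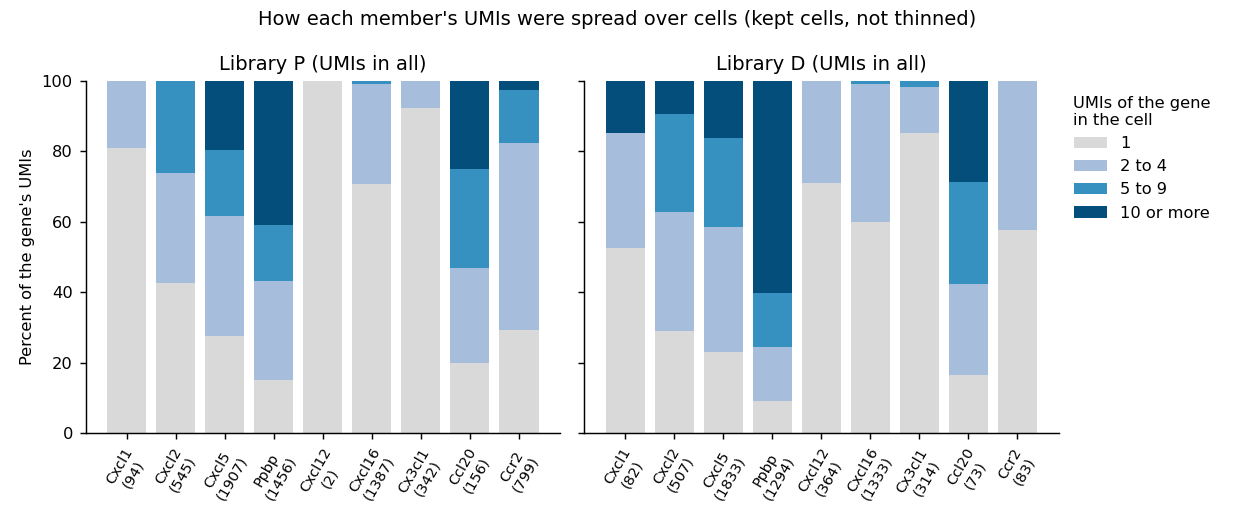
Share of each member's UMIs that came from cells with 1, 2 to 4, 5 to 9 and 10 or more of its UMIs, for P and D. Cells with 10 or more UMIs supplied 40.8% of Ppbp UMIs in P and 60.3% in D, while 92.4% and 85.4% of Cx3cl1 UMIs came from cells with a single one.

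Cxcl2, Cxcl5 and Ppbp were found together more often than the product of their shares of cells. Among thinned cells of P, 28.8% of Ppbp carriers also held a Cxcl5 UMI, as did 7.86% of all cells. In D these shares were 35.8% and 10.1%. Of Cxcl2 carriers, 24.7% in P and 37.7% in D held Cxcl5. The joint share also exceeded that of all cells when it was taken inside a single cluster. In P cluster 0, 30.7% of Ppbp carriers and 35.9% of Cxcl2 carriers held Cxcl5, against 15.5% of all cells there. In D cluster 2 the shares were 45.0% and 46.1%, against 25.1%. Carriers were deeper than other cells before thinning (median 4477 against 3352 UMIs for Ppbp in P and 5420 against 3148 in D), and what residual differences of cell size contribute to co-detection was not tested. The median mitochondrial share was also higher in thinned carriers than in other cells of P, at 6.82% against 5.79% for Cxcl5 and 6.77% against 5.83% for Ppbp, and its part was not tested. Over all members, 26.2% of thinned cells in P and 29.4% in D held at least 1 member, and 4.79% and 6.45% held 2 or more.

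**Figure D4:**
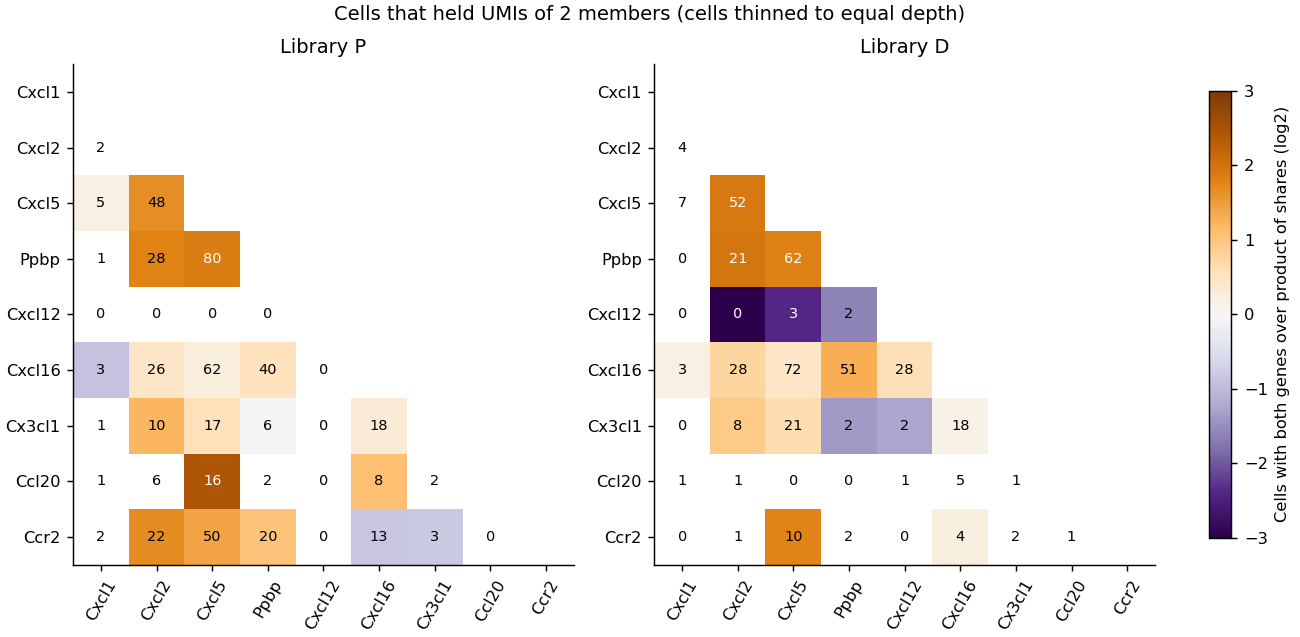
Number of thinned cells that held UMIs of both genes of a pair, in P and D, with colour for the log2 ratio to the product of their shares (cut at 3 in either direction, coloured where the product was at least 2.5 cells). Cxcl2, Cxcl5 and Ppbp were found together above the product in both libraries, and Cxcl12 carriers of D held Cxcl2 in 0 cells and Cxcl5 in 3.

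The cells that held ELR transcripts were compared with the other cells of their library at equal depth. The intermediate list was 1.66 log2 units higher in Ppbp carriers than in other cells in P and 1.16 higher in D. The squamous list was 1.64 and 1.55 higher. In Cxcl5 carriers the intermediate list was 1.03 and 0.66 higher, and in Cxcl2 carriers 0.76 and 0.64. The clusters with most Ppbp UMIs were themselves high for this list, by 2.12 log2 units in P cluster 0 and 1.17 in D cluster 2. Taken within the cluster with most carriers, 61 list ratios over all members moved, 3 reversed and 24 stayed within their intervals. The gene most correlated with Cxcl5 and Ppbp over the cells of P was Psca, a surface protein of the intermediate list, with Pearson's r of 0.29 and 0.37, and the next genes for Ppbp were Mal (0.36), Hopx (0.31), Gsto1 (0.31) and Pdzk1ip1 (0.30). For Cxcl5 in D the leading genes were Gsto1 (0.34), Psca (0.33), Mal (0.29), Anxa1 (0.28) and Ltf (0.27). These values run over the cells of 1 library, which share depth and cluster, and are a description.

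Genes of NF-κB signalling, the transcription factor pathway that drives inducible chemokines, were higher in Cxcl2 carriers, by 0.72 log2 units in P (0.59 to 0.85) and 0.86 in D (0.72 to 1.0) over the list of 32 NF-κB and cytokine genes. In D, Nfkbia, the inhibitor that NF-κB itself induces, was 1.29 log2 units higher in Cxcl2 carriers (0.97 to 1.60), Tnfaip3, another feedback inhibitor, 2.02 (0.50 to 3.25) and Tnf 3.48 (2.20 to 4.63). Cxcl3, an ELR gene of the same chromosome 5 group as Cxcl2, was 2.17 higher in P (1.37 to 2.88) and 4.54 in D (3.57 to 5.48). In Cxcl1 carriers Nfkbia was 1.02 higher in P (0.52 to 1.48) and 1.60 in D (0.86 to 2.25). Cxcl1 carriers of P also had a proliferation list 1.46 higher (1.11 to 1.79) and a squamous list with a ratio of −2.08 (−2.58 to −1.63), which was −0.63 without thinning and −1.13 within the cluster with most carriers. Of these 56 thinned carriers 6 lay in P cluster 3, where the proliferation list stood at 4084.6 CPM, against 34.6 in the rest of P.

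Platelets and megakaryocytes are the textbook source of Ppbp, and their genes were measured beside it. The 6 platelet genes summed to 3.49 CPM in P and 4.24 in D. Among the 436 Ppbp carriers of P, Pf4 had 3 of its 7 UMIs (0.688% of carriers, against 0.0627% of other cells), the integrin gene Itga2b was found in 8 cells (1.83%, against 1.21% of other cells), and the platelet glycoprotein genes Gp9 and Gp1ba had 0. In the 263 carriers of D, Itga2b was found in 2 cells and Pf4 in 0. Keratin 5 was detected in 96.3% of the carriers of P and 99.0% of other cells, and in D in 98.1% of both. Krt14 was found in 45.4% of the carriers of P and 71.0% of other cells. The part of platelet transcripts in the Ppbp result was not tested.

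The bases before the start site are shown for Cxcl1, Cxcl2 and Ccl20, whose carriers had higher levels of NF-κB feedback genes, and for Ppbp, most of whose UMIs lay in 1 cluster of each library. They are the 250 bases upstream of the RefSeq start in GRCm38.p6, each on the + strand and read 5′ to 3′, and the capitals mark motif matches. Promoters were matched for 7 of 9 members, all but Cxcl5 and Cxcl16.
Cxcl1 chr5:90890995-90891244: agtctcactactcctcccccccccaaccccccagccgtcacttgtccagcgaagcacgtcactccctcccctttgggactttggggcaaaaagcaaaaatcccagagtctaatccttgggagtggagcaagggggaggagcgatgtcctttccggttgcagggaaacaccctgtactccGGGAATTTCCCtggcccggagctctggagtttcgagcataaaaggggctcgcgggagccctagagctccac
Cxcl2 chr5:90903649-90903898: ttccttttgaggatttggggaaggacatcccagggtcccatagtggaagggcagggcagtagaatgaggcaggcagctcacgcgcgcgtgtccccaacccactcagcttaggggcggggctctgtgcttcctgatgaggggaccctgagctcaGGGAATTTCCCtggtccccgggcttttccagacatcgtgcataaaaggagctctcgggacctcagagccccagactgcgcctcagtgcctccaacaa
Ccl20 chr1:83116516-83116765: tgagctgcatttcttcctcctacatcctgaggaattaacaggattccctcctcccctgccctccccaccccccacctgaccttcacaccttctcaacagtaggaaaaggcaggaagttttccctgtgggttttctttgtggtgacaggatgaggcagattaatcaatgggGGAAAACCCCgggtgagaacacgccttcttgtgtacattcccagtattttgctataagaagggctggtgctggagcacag
Ppbp chr5:90768268-90768517: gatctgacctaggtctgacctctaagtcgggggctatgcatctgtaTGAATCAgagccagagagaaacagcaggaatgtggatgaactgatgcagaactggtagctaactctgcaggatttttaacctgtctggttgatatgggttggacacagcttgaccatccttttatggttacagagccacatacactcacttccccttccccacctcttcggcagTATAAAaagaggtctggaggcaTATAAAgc
The NF-κB consensus matched on both strands, with overlapping positions, from −71 to −61 in Cxcl1 and from −97 to −87 in Cxcl2, and on the − strand from −80 to −71 in Ccl20. It was found on either strand in 3.90% of 32851 promoters of this length. The Ppbp window had no such match. It held TGANTCA, the AP-1 consensus, from −204 to −198 (6.75% of promoters) and TATAAA from −30 to −25 and from −8 to −3 (12.4% of promoters, searched on both strands). A match describes the letters of the window only.

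Cxcl12, the ligand of CXCR4 and of the scavenging receptor ACKR3, was nearly absent from P, with 2 UMIs in 2 cells (0.0750 CPM, 0.00908 to 0.271). In D it had 364 UMIs in 306 cells (17.9 CPM, 16.1 to 19.9). The ratio of 239 has a counting interval of 65.7 to 1982, wide because of the 2 UMIs of P. In thinned cells the share was 0.0151% in P and 3.53% (3.01 to 4.12) in D, and in unthinned cells 0.0293% and 6.25%. No cell held more than 3 UMIs, and 71.2% of those of D came from cells with a single UMI, so that Cxcl12 was spread thinly over many cells rather than carried by a few.

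Within D, Cxcl12 was highest in cluster 1, at 53.1 CPM (46.3 to 60.7), with 10.8 in cluster 0 and 2.92 in cluster 2. Cluster 1 held 26.8% of the cells and 60.2% of the Cxcl12 UMIs, and 10.2% of its thinned cells had one, against 0.279% in cluster 2. The place of Cxcl12 was thus the reverse of that of Cxcl5 and Ppbp, which were lowest there. Of 156 thinned Cxcl12 carriers, 3 held Cxcl5 (1.92%, against 10.1% of all cells) and 0 held Cxcl2, which allows up to 3 counts of 156. In contrast 28 held Cxcl16 (17.9%, against 12% of all cells). Compared with other cells of D, Cxcl12 carriers had a luminal list 2.56 log2 units lower (−2.94 to −2.21), an intermediate list 1.20 lower (−1.27 to −1.12) and a basal list 0.30 higher (0.27 to 0.34), with Krt14 1.27 and Itgb4 1.04 higher. Within cluster 1 alone these list ratios were −0.18 (luminal), 0.20 (intermediate, of the opposite sign) and −0.04 (basal). The other basal genes did not all move alike. Without thinning, Krt15 was found in 96.7% of Cxcl12 carriers and 95.8% of other cells, and Cd44 in 32.7% and 30%. Trp63 was found in 40.85% and 22.55%, and Itga6 in 45.75% and 33.86%. The genes most correlated with Cxcl12 over the cells of D were Krt14 (r = 0.20), the hemidesmosome collagen Col17a1 (0.17), Sema3d (0.15), Dcn (0.15) and Ctsl (0.14).

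Genes of stromal cells were higher in D, and within D they were highest in cluster 1, as Cxcl12 was. The fibroblast list was 3.57 log2 units above the rest of D in that cluster, and the smooth muscle and pericyte list 4.53. The fibroblast list, of 8 genes, summed to 2.02 CPM in P and 62.5 in D, and the smooth muscle and pericyte list, of 6 genes, to 1.42 and 54.3. Dcn, which encodes the matrix proteoglycan decorin, gave 40 of the 54 fibroblast-list UMIs of P and 1234 of the 1270 of D. Dcn was found in 34.3% of the 306 Cxcl12 carriers and 12.03% of other cells. At equal depth it was 1.99 log2 units higher in carriers (1.62 to 2.34). Among thinned cells 26.9% of Cxcl12 carriers held Dcn, against 29.4% of all cells of D cluster 1, where 106 of the 156 carriers lay. No co-detection beyond the shared cluster is therefore read from Dcn. The fibrillar collagen genes that define fibroblasts were at or near 0, with 10 UMIs of Col1a1 and 19 of Col3a1 in all of D, of which the carriers held 3 and 4, and 0 of Col1a2. Pdgfra, Pdgfrb and Thy1 had 0 UMIs in the carriers, while Krt5 was found in all 306 (100%) and Krt14 in 97.1%. Acta2, a smooth muscle actin, had 123 UMIs in 19 of the carriers, and Rgs5 27 in 18. Doublet candidates made up 9.48% of Cxcl12 carriers and 5.21% of all cells of D. The part of stromal transcripts and of doublets in the Cxcl12 result was not tested, and without the doublet candidates the log2 ratio of D to P was 7.77, beside 7.90 with them.

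Of the receptors of Cxcl12, Cxcr4 had 0 UMIs in both libraries and Ackr3 had 154 in P and 246 in D (5.77 and 12.1 CPM, log2 ratio 1.07). Ackr3 was highest in the same D cluster 1 as its ligand, at 44.2 CPM (38.0 to 51.1), where 74.0% of its D UMIs lay, and in P it was highest in clusters 1 (11.8 CPM) and 3 (10.7). Both transcripts in the same cell were seen in 9 of the 156 thinned Cxcl12 carriers of D (5.77%). Ackr3 was found in 114 of all 4417 thinned cells of D and in 9.46% of those of cluster 1, where most Cxcl12 carriers lay, so that no co-detection is read from the 9 cells.

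Cxcl16 and Cx3cl1 encode chemokines that are made as transmembrane proteins on a mucin-like stalk and are released by the proteases ADAM10 and ADAM17. They were the members most evenly spread over cells. Cxcl16 was found in 1163 cells of P and 1034 of D, the most of any member, and its 20 richest cells held 4.98% and 5.48% of its UMIs. Its level ranged from 28.0 CPM in cluster 2 of P to 61.0 in cluster 1 (54.6 in cluster 0 and 55.7 in cluster 3). In D it ranged from 44.2 CPM in cluster 0 through 68.9 in cluster 1 to 132.8 (121.4 to 145.0) in cluster 2. Of thinned cells, 9.96% in P (9.25 to 10.7) and 12% in D (11.05 to 12.99) held it, and 17.1% and 21.1% of unthinned cells. Thus Cxcl16 was well above 0 in D cluster 1, where Cxcl5 and Ppbp were at 5.82 and 1.70 CPM.

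Cx3cl1, which encodes fractalkine, had 12.8 CPM in P and 15.5 in D. Across clusters of P it lay between 8.74 and 15.0 CPM, and in D it was highest in cluster 0 (19.2 CPM, 16.8 to 21.8), with 9.95 in cluster 1 and 9.28 in cluster 2. No gene was correlated with it above r = 0.08 over the cells of P, a value too weak in sparse counts to be read. The protease genes were both measured: Adam10 had a log2 ratio of D to P of 0.94 (1367 and 1998 UMIs) and Adam17 one of 0.33 (529 and 507 UMIs), and neither reached 2-fold. Their leukocyte receptors were scarce, with 1 UMI of Cxcr6 in each library and 5 and 4 of Cx3cr1.

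Ccl20, the ligand of CCR6 that attracts dendritic cells and lymphocytes to mucosal surfaces, was carried by the fewest cells of all members apart from Cxcl12 in P. It had 156 UMIs in 56 cells of P (5.85 CPM, 4.97 to 6.84) and 73 in 24 cells of D (3.60 CPM, 2.82 to 4.52). The 20 richest cells held 73.7% of its UMIs in P and 94.5% in D, with up to 16 and 11 in a cell. Its lower level in D thus rests on a few cells. It was highest in the clusters with the highest basal list, at 12.5 CPM in P cluster 1 (10.1 to 15.2) and 16.01 in D cluster 1. In P cluster 3 it stood at 7.51 CPM (3.88 to 13.1), whose interval overlapped that of cluster 1, in cluster 0 at 3.60 and in cluster 2 at 0.220. In D clusters 0 and 2 it stood at 0.403 and 0.530 CPM.

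Genes of the NF-κB pathway stood out in the Ccl20 carriers of P. The NF-κB and cytokine list was 1.43 log2 units higher in them than in other thinned cells (1.20 to 1.66). Among its genes Nfkbia was 1.66 higher (1.17 to 2.11), Tnfaip3 3.70 higher (2.03 to 4.99, on 5 UMIs in carriers) and Tnfaip2 1.96 higher (1.57 to 2.32). The monocyte attractant Ccl2 was 6.82 higher (5.69 to 7.90), with 13 UMIs in the 38 thinned carriers and 20 in all other cells, and it was found in 7 of the 38. Of the same 38 carriers 16 held Cxcl5 (42.1%), and in P cluster 1, where Cxcl5 was in 1.93% of cells, 11 of 24 Ccl20 carriers held it (45.8%). The early-response genes moved the other way, with an immediate early list ratio of −1.03 (−1.41 to −0.68), which was −0.33 without thinning. In D, 0 of 16 thinned Ccl20 carriers held Cxcl5, where the product of their shares was 1.62 cells. Of these carriers 13 lay in D cluster 1, where Cxcl5 was in 0.772% of thinned cells. Without thinning, 2 of the 20 cells of D richest in Ccl20 held Cxcl5, so that no difference from P is read.

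**Figure D5:**
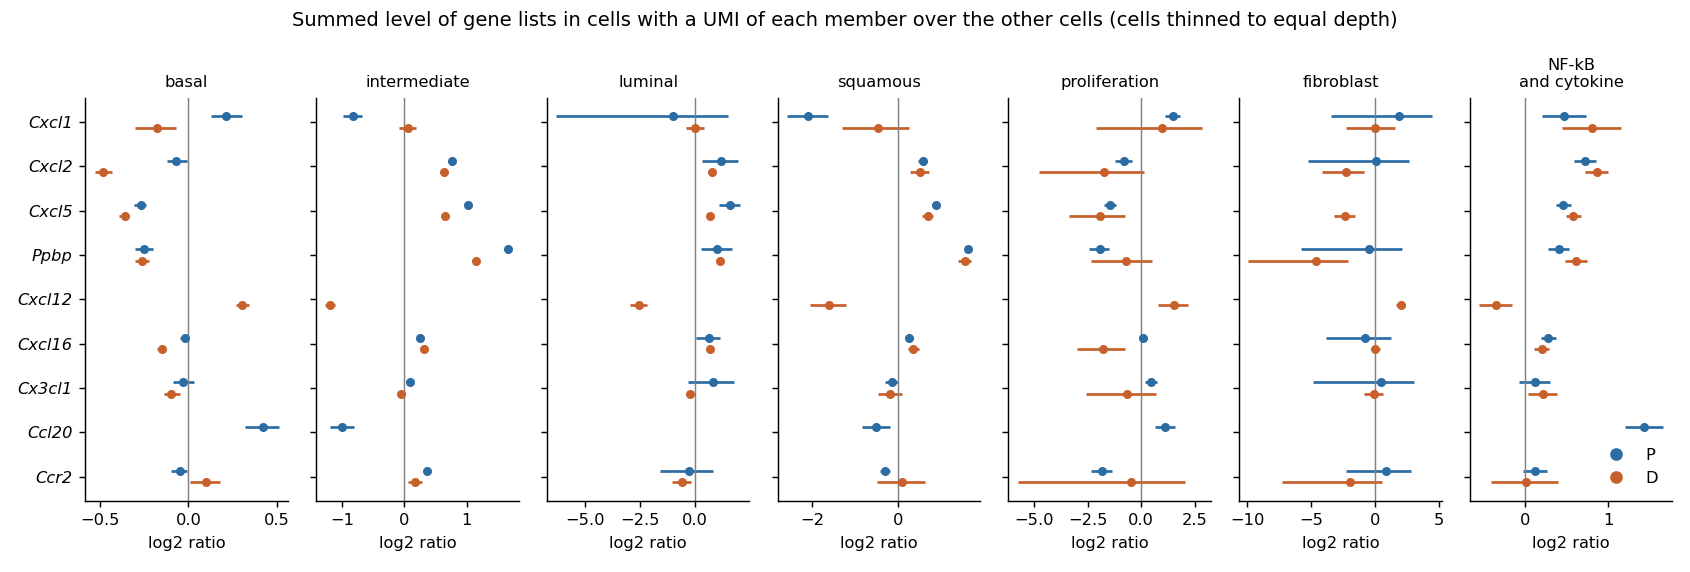
Log2 ratio of summed list levels in carriers of each member against the other cells of the same library, at equal depth. Ppbp and Cxcl5 carriers are high for the intermediate and squamous lists, Cxcl12 carriers are high for the fibroblast list (2.0) and low for the luminal list (−2.56), and Ccl20 carriers of P are high for the NF-κB list (1.43).

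Ccr2, the receptor of CCL2 best known from monocytes, was the one receptor among the members and was higher in the proliferative culture. It had 799 UMIs in 420 cells of P (29.95 CPM, 27.9 to 32.1) and 83 in 63 cells of D (4.09 CPM, 3.26 to 5.07), a log2 ratio of −2.87 (−3.22 to −2.55). In thinned cells the shares were 3.57% (3.14 to 4.05) and 0.657% (0.440 to 0.942), and in unthinned cells 6.16% and 1.29%. A cell held at most 11 UMIs in P and 4 in D.

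Ccr2 differed widely between clusters. In P it stood at 49.6 CPM in cluster 2 (43.3 to 56.5) and 42.6 in cluster 0 (39.1 to 46.4), whose intervals overlapped. It stood at 14.4 in cluster 3, and at 0.900 in cluster 1, the cluster with the highest basal list. In D, 95.2% of its UMIs lay in cluster 0 (6.37 CPM), with 0.243 CPM in cluster 1 and 0.795 in cluster 2, and all of the 20 richest cells were in cluster 0. The share of thinned P cells with a UMI was 5.87% in cluster 2 and 0.247% in cluster 1. Whether the latter reflects low expression or background was not tested. The basal list as a whole was near that of other cells in Ccr2 carriers, at −0.05 log2 units in P and 0.10 in D, but its genes went in different directions. Krt14 had a log2 ratio of −2.70 in P (157 UMIs in carriers, −2.94 to −2.48) and −2.45 in D (−2.89 to −2.04). Krt15, another basal keratin, went the other way, with ratios of 0.84 in P (0.76 to 0.91) and 0.61 in D (0.50 to 0.72). Mki67, a gene of cycling cells, had a log2 ratio of −3.55 in P (1 UMI in carriers, −8.86 to −1.06). The carriers of P had a median mitochondrial share of 7.53%, beside 5.81% in other cells, and its part in the Ccr2 result was not tested.

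The markers of monocytes, the usual carriers of Ccr2, were at or near 0 in these cells. Of the 420 carriers of P none held Ptprc or Csf1r, 4 held Laptm5 (0.952%, against 0.0469% of other cells) and 1 held Lyz2 (0.238%, against 0.219%), while 99.8% held Krt5 (98.8% of other cells). None of the 63 carriers of D held Ptprc, all held Krt5 (100%, against 98.1%), and 10 held Laptm5, a lysosomal leukocyte gene (15.9%, against 6.35% of other cells). The leukocyte list of 14 genes summed to 1.61 CPM in P and 20.8 in D. Of these genes Laptm5 gave 400 UMIs in D against 7 in P. Without it the list summed to 1.35 CPM in P and 1.08 in D. The part of leukocyte transcripts in the Ccr2 result was not tested.

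Other chemokines were seen with Ccr2. Cxcl15, an ELR chemokine of the same chromosome 5 group (308 UMIs in P and 296 in D), was 3.03 log2 units higher in Ccr2 carriers of P (2.46 to 3.56) and found in 20 of 237 thinned carriers (8.44%). Cxcl5 was found in 50 of the 237 (21.1%, against 7.86% of all cells). Cxcl16 was found in fewer, 5.33% of the Ccr2 carriers of P cluster 0 against 10.4% of its cells. The ligand Ccl2 had its highest levels in other clusters than Ccr2 did. Its 63 UMIs of P stood highest in cluster 3 (8.77 CPM, 4.79 to 14.7) and cluster 1 (4.89 CPM, 3.46 to 6.71), whose intervals overlapped. Its 19 UMIs of D stood highest in cluster 1 (4.37 CPM), and the other clusters of both libraries had at most 0.783 CPM. In P cluster 3 Ccl2 had 14 UMIs and was found in 1 of 339 thinned cells, and Ccr2 stood there at 14.4 CPM. The genes most correlated with Ccr2 over the cells of P were Sptssb (r = 0.25), Aqp4 (0.23), Wfdc2 (0.23), Ifitm1 (0.21) and Alcam (0.20).

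Many other genes of the chemokine system had no counts. Of 29 other ligand genes in the matrices 13 had 0 UMIs in both libraries and 4 had at least 100 over both. Among these 4, Cxcl3 was 2-fold higher in P (338 UMIs against 86, log2 ratio −1.58) and 0 were 2-fold higher in D. Cxcl3, with 24.0 CPM in P cluster 0 and 90.5% of its P UMIs there, shared the clusters of Cxcl5 and Ppbp, and stood at 9.54 CPM in D cluster 2 with 0 UMIs in D cluster 1. Cxcl15, Ccl25 and Ccl27a were below 2-fold (log2 ratios of 0.34, 0.45 and 0.17). The interferon-induced ligand Cxcl10 had 0 UMIs in P and 18 in D. Of 22 other receptor genes 11 had 0 UMIs in both libraries, Cxcr2 and Cxcr4 among them, and Ackr3 alone had at least 100. A count of 0 allows up to 3 UMIs per library, and covers transcripts only.

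The genes that regulate inducible chemokines were largely below 2-fold between the cultures. Of 32 NF-κB and cytokine genes 28 had at least 100 UMIs, 5 of them were 2-fold higher in D and 1 in P, where 13.5% and 4.73% of all genes were, and the list's median log2 ratio was 0.51 beside 0.41 over all genes with at least 100 UMIs. The 5 were Il18 (2.5), with 751 and 3239 UMIs, Csf3 (2.56), Ptgs2 (2.42), Csf1 (2.14) and the interleukin-1 antagonist Il1rn (1.02). The interleukin gene Il1a was lower in D, with 509 and 28 UMIs (log2 ratio −3.79), and Il1b and Il6 had 0 UMIs. Of the 5 genes that control decay of chemokine mRNAs, Zfp36 was 2-fold higher in D (1.37). The immediate early list, which also responds to the enzymatic dissociation of tissue, had 7 of 14 genes 2-fold higher in D and a median of 1.11, and its part in the chemokine levels was not tested.

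Differentiation markers set the frame for these levels. All 5 luminal genes with at least 100 UMIs were 2-fold higher in D (median log2 ratio 5.80), 3 of 9 intermediate and 2 of 7 basal genes were, and all 12 proliferation genes (median −3.51) and 7 of 9 squamous genes (median −4.21) were 2-fold higher in P. Cxcl2, Cxcl5 and Ppbp, which in P were highest in the cluster led by squamous genes, differed by at most 0.34 log2 units between the cultures, while Cxcl3, in the same cluster, had a log2 ratio of −1.58.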

How the data were processed

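A pair of 10x Chromium 3′ v3 libraries, 1 per condition, were read from UMI counts deposited by the authors as filtered gene-by-cell matrices, made with bcl2fastq 2.19.0 and Cell Ranger 3.0.2 against GRCm38 (mm10) per the submitters' processing notes. Cells with more than 800 genes and at most 12% mitochondrial UMIs were kept, as the study's methods word the filter. Reading it as at least 800 genes keeps 6826 cells of P in place of 6818 and the same 4896 of D. UMIs were summed over kept cells and scaled to counts per 1000000 UMIs. Levels have exact Poisson intervals, ratios exact conditional binomial intervals and shares exact Clopper-Pearson intervals, all at 95%. A gene was read between groups when it had at least 100 UMIs, and a ratio of 2 or more was counted. With 1 library per condition no test was run. Shares and carrier comparisons used cells thinned to 2100 UMIs, which left out 180 shallower cells of P and 479 of D.

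Each library was clustered alone with Seurat 5.3.0 (R 4.3.3; 2000 variable features without chemokine and receptor genes, 25 components in P and 21 in D, resolution 0.2). Scrublet in scanpy 1.11.5 marked 0% of cells as doublets, so its threshold did not work, and the 5% of cells with the highest scores were treated as candidates (348 in P, 255 in D). They were kept, and left out as an alternative. The summing step was tested on simulated counts. Named genes were the members, the genes of fixed lists, the 5 genes most correlated with each member with at least 300 carriers (genes in at least 5% of cells) and the leading genes of clusters. The members and lists were chosen with earlier results of these data known. Promoter sequences are from RefSeq (GRCm38.p6), and transcript positions from the GRCm38 annotation. Alternatives changed the scaling, the cell filter, doublet candidates, the count minimum, the fold, thinning and clustering.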

Additional observations from a re-analysis of the deposited data

Results flagged for a closer look

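Barcodes outside the comparisons also held chemokine transcripts. The 1376 barcodes left out of P by the cell filter held 383 UMIs of the members, and the 2079 left out of D held 461. Per 1000000 non-mitochondrial UMIs this was 192.3 in P, against 266.4 in kept cells, and 222.5 in D, against 312.0. Cxcl12 stood at 25.1 (18.7 to 32.9) in the barcodes left out of D and 19.3 in kept cells, while Ppbp stood at 23.2 (17.1 to 30.7) and 68.6.

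The basal list lay on opposite sides in carriers of P and D for 2 members. In Cxcl1 carriers it was 0.21 log2 units above other cells in P (0.13 to 0.30) and −0.18 in D (−0.30 to −0.07). In Ccr2 carriers it was −0.05 in P (−0.10 to −0.01) and 0.10 in D (0.01 to 0.18). The difference between the libraries was not tested for either gene.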

How the results depend on the processing

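With CPM computed without mitochondrial and ribosomal protein genes, with median ratio scaling and at a fold of 1.5, the members counted as higher in P became 2, since Ccl20 joined Ccr2, and the other 17 recomputed counts were unchanged within 1.5 times. Without mitochondrial and ribosomal protein genes, the log2 ratio of D to P turned to −0.05 for Cxcl2, −0.11 for Ppbp and −0.07 for Cx3cl1. With median ratio scaling it turned to −0.13 for Cxcl2, −0.08 for Cxcl5, −0.09 for Cxcl16, −0.20 for Ppbp and −0.15 for Cx3cl1. Cxcl12, Ccr2 and Ccl20 kept their direction under every scaling, cell filter and doublet setting run. Within the cluster with most carriers, the luminal list turned to −0.04 in Ppbp carriers of P and −0.36 in those of D, and the intermediate list to 0.20 in Cxcl12 carriers of D. With carriers of 2 or more UMIs, a setting added for the lists after seeing the data, the luminal list turned to −0.47 in Cxcl2 carriers of P. The cause of these turns was not tested. At resolution 0.4, 6 cluster ratios moved: in P cluster 0 Cxcl2 (0.97, beside 1.30), Cxcl5 (1.12, beside 2.49) and Ppbp (2.57, beside 4.01), in P cluster 1 Ccl20 (2.79, beside 2.0), and in D cluster 0 Cx3cl1 (0.39, beside 0.99) and Ccr2 (1.59, beside 3.65). Without doublet candidates Ppbp in D cluster 2 moved (4.19, beside 3.85), and the remaining 44 cluster ratios stayed within their intervals. Of the other list ratios in carriers 191 stayed within the interval and 136 moved, and of shares of cells 12 and 60, since shares depend on depth. Transcripts of a few UMIs per library, Cxcl12 in P above all, are limited by depth. No paired analysis was possible because each condition is 1 library.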
